A study of Mus musculus with 10 samples.

Results

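Expression of the ERBB receptors and their ligands was examined in cardiomyocytes, the contracting cells of heart muscle, with and without dnMKL1. The 10 genes were taken by symbol from the 23337 genes of the authors' deposited comparison, with earlier results of these data known. They are the receptors Egfr, Erbb2, Erbb3 and Erbb4, and the ligands Nrg1, Nrg2, Hbegf, Areg, Ereg and Btc. dnMKL1 is a dominant-negative form of MKL1 (MRTF-A), a coactivator of serum response factor (SRF), so it blocks the action of the normal protein. All mice were wild type and received AAV9 on postnatal day 1 at 5e+08 viral genomes per gram, and the GFP group (5 libraries) got AAV9-cTNT-GFP while the dnMKL1 group (5 libraries) got AAV9-cTNT-dnMKL1-GFP. cTNT is the cardiac troponin T promoter, which restricts the transgene to cardiomyocytes. Cells were taken on postnatal day 14 by collagenase perfusion and fluorescence-activated sorting, so both groups carry GFP, virus and the sort. The labels call the libraries biological replicates and do not say whether each came from 1 heart.

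ERBB proteins are receptor tyrosine kinases of the cell surface that work in pairs. Egfr binds the EGF-type ligands, Erbb4 binds both neuregulins and some EGF-type ligands, Erbb3 binds neuregulins but is a weak kinase, and Erbb2 binds no ligand and serves as the preferred partner of the others. In the heart, neuregulin 1 from endothelial and endocardial cells acts on Erbb4 and Erbb2 of cardiomyocytes, a signal needed for trabeculation, for the growth of young cardiomyocytes and for the upkeep of adult muscle. The ligands are made as membrane proteins and are cut free by ADAM proteases.

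The catalytic loop, a conserved part of the kinase domain, is shown for the receptors because Erbb3, the weak kinase, departs from the other receptors within it. A search of the coding sequences (GENCODE M21, GRCm38) left the sixth codon of the loop free and let the third code for aspartate or asparagine. It found 1 match in frame in each of the 4 receptor genes, within exon 21 of the transcript used. All 4 matches code for aspartate at the third codon. A search that also fixed the sixth codon as GCC would miss Erbb3. The stretches have 24 bases, and capitals mark the sixth codon.
Egfr (chr11:16904338-16904361, plus strand): caccgtgacttggcaGCCaggaat
Erbb2 (chr11:98434247-98434270, plus strand): cacagggacctagctGCCcgaaac
Erbb3 (chr10:128572533-128572556, minus strand): catagggaccttgcgCTCcggaat
Erbb4 (chr1:68080739-68080762, minus strand): catcgggatctggcaGCCcgcaat
Counted from 1 at the 5′ end of the stretch, the sixth codon of Erbb3 differs from that of Egfr, Erbb2 and Erbb4 by G16C and C17T. Over the whole stretch Erbb3 shared 15 of 24 bases with Egfr and 17 with each of Erbb2 and Erbb4. Whether the sixth codon bears on the activity of the kinase was not tested.

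The EGF-like part of a ligand is what the receptor binds, and its fold is held by 6 cysteines at conserved spacing. It is shown for Nrg1 and Btc, ligands that moved in opposite directions in these libraries. The stretches run over 2 exons each on the minus strand, from the first to the last cysteine codon, and capitals mark the cysteine codons.
Nrg1 (chr8:31837698-31849398): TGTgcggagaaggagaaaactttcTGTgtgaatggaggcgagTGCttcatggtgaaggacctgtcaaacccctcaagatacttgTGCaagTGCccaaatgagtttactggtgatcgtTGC
Btc (chr5:91362421-91366197): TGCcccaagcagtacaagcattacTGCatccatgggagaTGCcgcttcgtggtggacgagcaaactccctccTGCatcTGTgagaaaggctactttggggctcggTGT
The Nrg1 stretch has 40 codons and the Btc stretch 36.

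SRF binds the CArG box, so promoters were searched for it. RefSeq promoter sequences (GRCm38.p6, from 250 bases before to 50 after the start) were at hand for 5 of the 10 members: Egfr, Erbb2, Erbb4, Areg and Btc. The CArG box was found on either strand in 0 of these 5, against 1.81% of the 27025 genes searched. At so low a share a count of 0 in 5 carries little information. Whether SRF acts on the members was not tested. The bases before the start are shown for Erbb2, the most abundant receptor, and for Btc, the member ligand that fell. Neither holds a CArG box, so there are no capitals.
Erbb2 (chr11:98412234-98412469, plus strand): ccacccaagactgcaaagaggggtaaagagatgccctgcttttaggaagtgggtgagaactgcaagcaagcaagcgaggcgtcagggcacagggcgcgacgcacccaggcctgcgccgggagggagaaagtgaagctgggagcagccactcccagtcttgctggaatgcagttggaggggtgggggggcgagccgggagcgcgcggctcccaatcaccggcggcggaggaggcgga
Btc (chr5:91402995-91403244, minus strand): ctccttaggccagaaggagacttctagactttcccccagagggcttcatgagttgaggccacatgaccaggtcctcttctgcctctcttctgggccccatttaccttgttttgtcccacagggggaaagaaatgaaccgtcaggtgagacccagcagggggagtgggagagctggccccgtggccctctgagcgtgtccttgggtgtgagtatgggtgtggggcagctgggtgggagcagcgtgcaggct
The Erbb2 sequence was 65.7% G or C and the Btc sequence 59.6%. Among the same 5 promoters, TGACGTCA, the site of CREB, was found in 1 (Areg), against 2.03% of all, and GGGCGG, the GC box, in 2 (Egfr and Areg), against 38.2% of all. The searches cover only these letters in this window.

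The deposited table gives each gene's base mean (the average over the libraries of reads divided by a size factor, in normalized counts), a log2 fold change with its standard error (SE), and a Wald p-value with Benjamini-Hochberg adjustment. A gene is called here at an adjusted p-value under 0.05. Positive log2 fold changes mean higher expression in dnMKL1 libraries, which was read from Mkl1, at 9.80 (SE 0.15) in the authors' deposited table. Values per library are not used for most genes, and group means were computed from base mean and fold change (implied means). For 5 members with few reads, the base mean could be resolved into the whole reads of every library. The group of each such library was taken from the sign of the authors' fold change for genes with reads in that library alone, and the libraries cannot be matched to the labelled replicate numbers. Size factors ran from 0.660 to 1.28 in the GFP libraries and from 0.809 to 1.58 in the dnMKL1 libraries. The implied means of all genes together were 0.29 lower on the log2 scale in the dnMKL1 group, so scaling to equal totals adds 0.29 to every log2 fold change. Calls under that scaling are given where they differ for the named genes and pathway lists.

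Of the 10 genes, 7 had an adjusted p-value, and 5 of these were called: Erbb2, Hbegf and Nrg1 were higher and Erbb3 and Btc were lower in dnMKL1 libraries. Over all 14056 genes with an adjusted p-value, 34.1% were called, 16.6% higher and 17.4% lower. Erbb4 and Egfr were not called, and Nrg2, Areg and Ereg were too low to receive an adjusted p-value, having a base mean under 1.31. The median log2 fold change of the 7 genes was 0.47, beside 0.02 over all 14056. Total-count scaling left 3 higher and 1 lower, Btc being the gene that was no longer called, against 40.4% of all genes higher and 6.6% lower under that scaling. The 3 higher genes then stood at 0.76 (Erbb2), 0.87 (Hbegf) and 2.25 (Nrg1).

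Levels can be compared between genes only per length, and were divided by the exonic length of each gene in GENCODE M21. In GFP libraries Erbb2 was the most abundant receptor at 83.7 normalized counts per kb of exon. Erbb3 followed at 41.8 and Erbb4 at 13.9. Egfr stood far below them, at 0.399. Among the ligands, Hbegf at 71.6 per kb was on a level with Erbb2, Btc stood at 8.84, and Nrg1, Areg and Nrg2 were at 0.186, 0.135 and 0.105. In dnMKL1 libraries Erbb2 and Hbegf stood at 116 and 107 per kb, Erbb3 at 24.4, Erbb4 at 12.0 and Btc at 4.99. The order of these 5 genes was the same in both groups. No error over libraries can be given for these 5 levels, so whether neighbours such as Erbb2 and Hbegf differ was not tested. Exonic length sums over all isoforms, which lowers the per-kb level of genes with many isoforms, such as Nrg1.

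**Figure D1:**
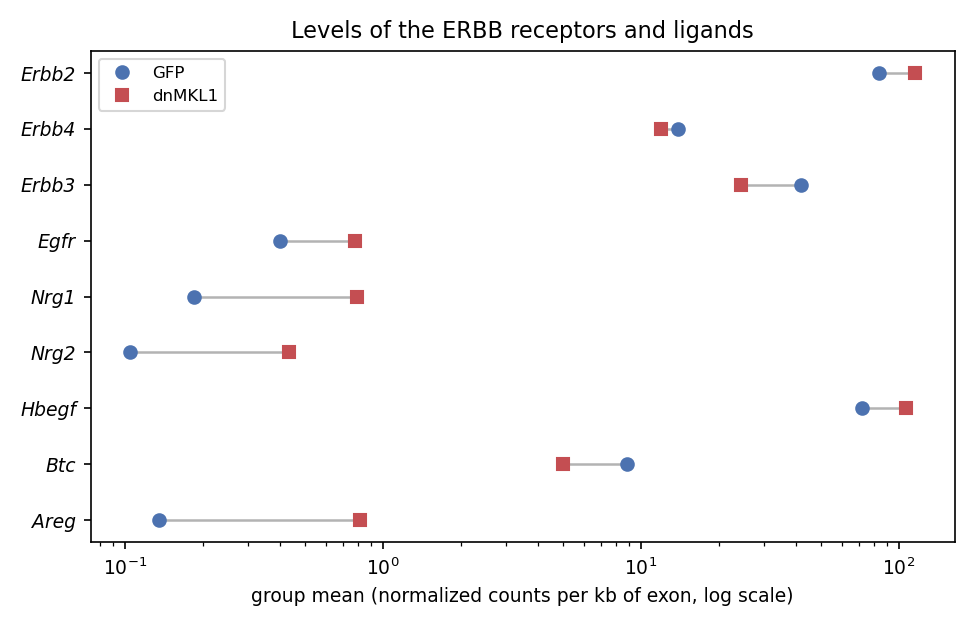
Group means per kb of exon (log axis, normalized counts) for 9 of the 10 genes in GFP (circles) and dnMKL1 (squares) libraries; Ereg, with 1 read in all, is not drawn. Erbb2 and Hbegf are the most abundant in both groups, at 83.7 and 71.6 per kb in GFP libraries, and Egfr, Nrg1, Nrg2 and Areg stay below 1.

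Erbb2, the shared partner receptor, rose. Its implied mean was 436 normalized counts with GFP and 604 with dnMKL1. The authors' deposited table gave a log2 fold change of 0.47 (SE 0.09), a fold of 1.39 with a 95% interval from 1.23 to 1.57 (Wald test, adjusted p = 2.25e-06). The interval leaves out no change, but at the authors' scaling a minimum absolute log2 fold change of 0.5 would not keep the call. Under total-count scaling the log2 fold change was 0.76. The gene lies at chr11:98412470-98437716 on the plus strand, and its exons share 9 bases with Mien1 on the other strand.

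Erbb3, the neuregulin receptor with the weak kinase, fell. Its implied mean was 252 normalized counts with GFP and 147 with dnMKL1, 41.8% lower. The authors' deposited table gave a log2 fold change of -0.78 (SE 0.12), with a 95% interval from -1.02 to -0.54 and the smallest adjusted p-value of the 10 genes (Wald test, adjusted p = 3.88e-09). Under total-count scaling the log2 fold change was -0.49, and the call was kept. Erbb3 (chr10:128567523-128589652, minus strand) shares no exonic base with another annotated gene. It is a known gene of Schwann cells, the glia of peripheral nerves, and of heart valves. Among glial markers, Sox10, which defines these cells, had a base mean of 2.19 normalized counts, and Foxd3 was listed at 0 in the authors' deposited table. The 10 glial markers summed to 46.2 normalized counts with GFP and 65.8 with dnMKL1. Of the 8 with an adjusted p-value 0 were called lower and 1, S100b, higher, beside 17.4% and 16.6% of all genes. Over the 9 cardiomyocyte markers the median log2 fold change was -0.49, and their summed implied means, most of which are Myh6 and Actc1, had a log2 ratio of -0.84. The part of that shift in the Erbb3 result was not tested.

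Erbb4, the receptor through which neuregulin 1 acts on cardiomyocytes, was not called. The implied means were 172 normalized counts with GFP and 148 with dnMKL1. Its log2 fold change was -0.22 (SE 0.19, adjusted Wald p = 0.439) in the authors' deposited table, and the 95% interval ran from -0.60 to 0.16. A fall to 0.661 of the GFP level or a rise to 1.12 times that level thus stayed within the error. The sign turned under total-count scaling, to 0.07. Erbb4 spans chr1:68032186-69108059 on the minus strand. The SE of Erbb4 was larger than that of Erbb3 (0.12), although their base means were near each other at 160 and 199. Whether the receptors' fold changes differ from each other was not tested, since the covariance between genes is not in the table.

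Egfr, the receptor of EGF-type ligands (chr11:16752203-16918158, plus strand), was rare, with 25 reads over all GFP libraries and 51 over all dnMKL1 libraries. In normalized counts, the GFP libraries had 0, 3.03, 4.67, 6.57 and 8.35. The dnMKL1 libraries had 5.67, 7.41, 9.44, 10.8 and 10.9. The groups overlapped, with 3 dnMKL1 libraries above the highest GFP library and 1 GFP library without a read. The means were 4.52 ± 3.22 (SD, n = 5) and 8.83 ± 2.25 (SD, n = 5). An exact two-sided permutation test over libraries, chosen after the data had been seen, gave an unadjusted p = 0.0397, where 0.00794 is the smallest that 5 against 5 can give. In the authors' deposited table Egfr had a log2 fold change of 0.88 (SE 0.53), an unadjusted Wald p = 0.10 and an adjusted p = 0.209, so it was not called. The log2 ratio of the means was 0.96 and lay between 0.64 and 1.31 when each library was left out in turn, the lowest value being that without the GFP library at 0.

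Fibroblasts are known to express Egfr, and a list of 12 fibroblast markers was higher in sum in dnMKL1 libraries, from 5192 to 8845 normalized counts (implied means), with 5 of 12 called higher (Col1a1, Col1a2, Col3a1, Fbln1 and Gsn) and 0 lower, and 8 of 12 higher under total-count scaling. Of all genes with an adjusted p-value, 16.6% were called higher at the authors' scaling and 40.4% under total-count scaling. Most of the rise in the fibroblast sum lay in Gsn, at implied means of 876 and 1951, and Fbln1, at 748 and 1944. Gsn is not restricted to fibroblasts. The 7 markers not called had positive log2 fold changes too, the lowest being Pdgfra at 0.06 (SE 0.25). The part of fibroblast RNA in the Egfr values was not tested. In sorted bulk cells, fewer cells of a type and less RNA per cell cannot be told apart.

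**Figure D2:**
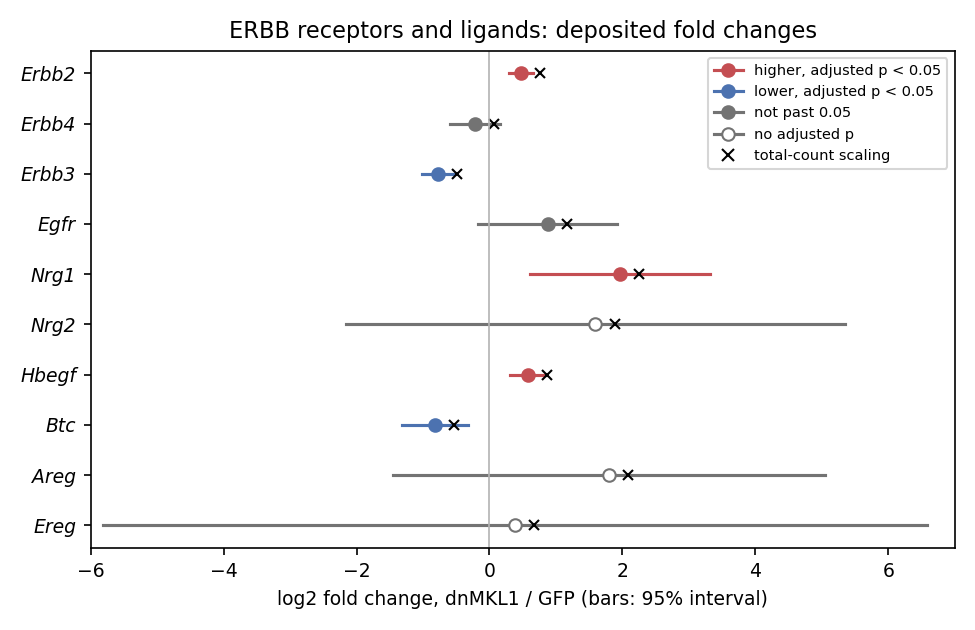
Log2 fold change of dnMKL1 over GFP for the 10 genes with 95% intervals from the authors' deposited SE; red and blue mark calls higher and lower, grey no call, open circles no adjusted p-value, and crosses the value under total-count scaling. Erbb3 and Btc lie below 0 and Erbb2, Hbegf and Nrg1 above it, while the Erbb4 interval spans 0 and its cross lies at 0.07.

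Nrg1, the neuregulin of cardiac endothelium, had few reads and rose. The gene lies at chr8:31814551-32884029 on the minus strand. Its reads numbered 11 over the GFP libraries and 47 over the dnMKL1 libraries. The GFP libraries had 0, 0.928, 1.51, 3.28 and 3.89 normalized counts. The dnMKL1 libraries had 4.94, 5.07, 7.93, 8.68 and 14.5. All 5 dnMKL1 libraries lay above all 5 GFP libraries. The means were 1.92 ± 1.63 (SD, n = 5) and 8.23 ± 3.90 (SD, n = 5). An exact two-sided permutation test over libraries gave an unadjusted p = 0.00794, the smallest that 5 against 5 can give. This test, like those of Nrg2 and Areg below, was chosen after the data had been seen. The authors' deposited table gave a log2 fold change of 1.96 (SE 0.69, adjusted Wald p = 0.0168), a call that was lost at a threshold of 0.01. The log2 ratio of the means was 2.10, and between 1.78 and 2.52 when each library was left out in turn. The Nrg1 reads were resolved with the help of the deposited fold change and SE, so they show how that result is made up by library and are no separate evidence for it.

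Nrg1 shares 482 exonic bases with Gm26578, a gene on the other strand. Whether the reads were counted by strand is not given in the sources used here, so reads from the pair cannot be told apart in that stretch. Endothelial markers, whose cells are the known source of Nrg1 in heart, were present at summed implied means of 4468 normalized counts in GFP and 4540 in dnMKL1 libraries. Of the 12 markers 0 were called, and 0 had an unadjusted Wald p-value under 0.05 in the authors' deposited table. Of 6 endocardial markers 1 was called higher, Npr3, at a log2 fold change of 1.00 (SE 0.40, adjusted Wald p = 0.0392) in the authors' deposited table. The endocardial list summed to 398 and 441. Under total-count scaling 2 of the 6 were called higher and 0 lower, the second being Nfatc1, at 0.35. Of all genes, 16.6% were called higher at the authors' scaling and 40.4% under total-count scaling. The part of endothelial and endocardial cells in the Nrg1 values was not tested.

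Nrg2, a neuregulin best known from neurons, was nearly absent. It lies at chr18:36017652-36197380 on the minus strand. Only 1 GFP library had reads, 2 in number. Among the dnMKL1 libraries 3 had reads, 4, 1 and 1. A single dnMKL1 library held 4 of the 6 reads of its group, at 4.94 normalized counts. The ratio of read rates was 2.64 with a 95% counting interval from 0.472 to 26.8, and the exact permutation p over libraries was 0.405. No difference was detectable at this depth.

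**Figure D3:**
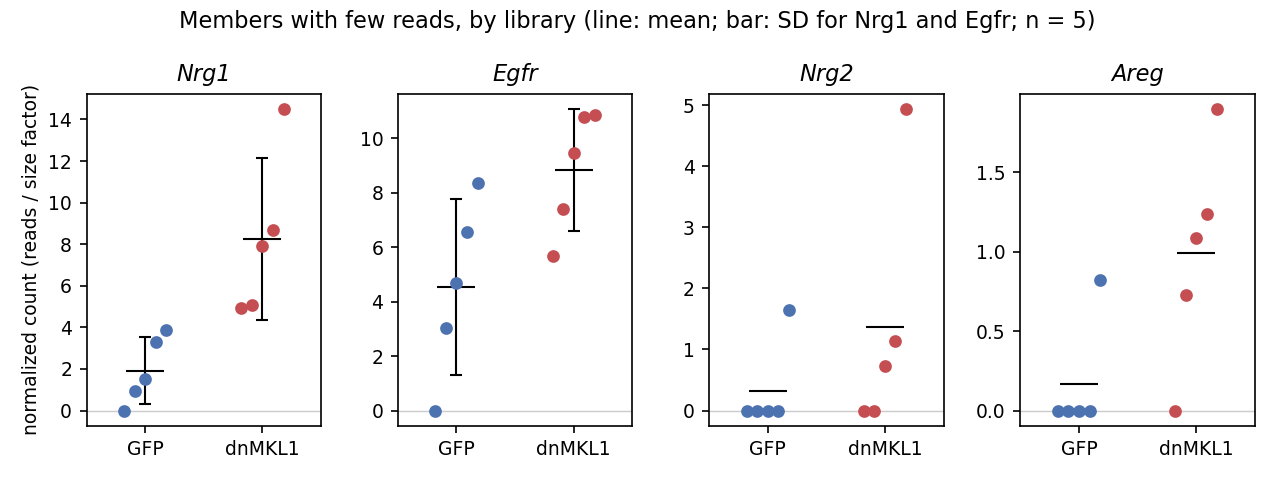
Normalized counts (reads divided by the library's size factor) of 4 rare genes, 1 point per library, with the mean as a line and, for Nrg1 and Egfr, the SD as a bar (n = 5 per group). For Nrg1 all dnMKL1 libraries, from 4.94 up, lie above the highest GFP library at 3.89, whereas for Egfr, Nrg2 and Areg the groups overlap.

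Hbegf, heparin-binding EGF-like growth factor, is a ligand of Egfr and Erbb4, and it rose. It lies at chr18:36504927-36515805 on the minus strand. The implied mean was 346 normalized counts with GFP and 517 with dnMKL1. The authors' deposited table gave a log2 fold change of 0.58 (SE 0.14), a fold of 1.49 with a 95% interval from 1.24 to 1.8 (adjusted Wald p = 2.22e-04). Hbegf was thus the 1 ligand at a level like that of Erbb2.

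Btc (betacellulin), a further ligand of Egfr and Erbb4, fell. Btc lies at chr5:91357261-91402994 on the minus strand, near Areg (chr5:91139599-91148432) and Ereg (chr5:91074622-91093646). The implied means were 40.0 normalized counts with GFP and 22.6 with dnMKL1, 43.6% lower. In the authors' deposited table its log2 fold change was -0.82 (SE 0.25, adjusted Wald p = 0.00516), with a 95% interval from -1.32 to -0.33. Under total-count scaling it was -0.54 and not called.

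Areg (amphiregulin) and Ereg (epiregulin), ligands made by many epithelial and immune cells, were at the edge of detection. Areg had 1 read in 1 GFP library. In dnMKL1 libraries it had 3, 1, 1, 1 and 0 reads. The ratio of read rates was 5.28 with a 95% counting interval from 0.641 to 243, and the exact permutation p was 0.0873. The Areg groups overlapped, since the dnMKL1 library without a read lay below the 1 GFP library with a read. Ereg had 1 read, in a dnMKL1 library, and a count of 0 in the GFP libraries allows up to 3 reads over the group. Neither gene showed a difference detectable at this depth. Of the lymphoid and mast cell markers, Cd3e and Nkg7 were listed at 0 in the authors' deposited table, while Kit had a base mean of 54.5 normalized counts.

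Other ligands of the family were read from a list of 5 genes. Tgfa, an Egfr ligand, rose: its implied means were 13.1 and 51.5 normalized counts, and the authors' deposited table gave a log2 fold change of 1.97 (SE 0.40, adjusted Wald p = 8.32e-06). Egf fell, from 118 to 58.7 in implied means, at -1.01 (SE 0.24, adjusted Wald p = 2.01e-04) in the authors' deposited table. Nrg4 had a log2 fold change of -1.39 (SE 0.62) and Epgn one of -1.01 (SE 0.65) in the authors' deposited table, neither past the threshold, and Nrg3 was listed at 0. Ligands that share Egfr as receptor thus stood on both sides, with Hbegf and Tgfa higher and Btc and Egf lower.

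Genes that process ligands numbered 11, with 4 called higher and 3 lower and a median log2 fold change of 0.01. Over all genes with an adjusted p-value, 16.6% were called higher and 17.4% lower. Total-count scaling gave 5 higher and 0 lower on this list, beside 40.4% and 6.6% of all genes. Rhbdf2 and Rhbdf1, the inactive rhomboids that bring the sheddase ADAM17 to the cell surface, both rose. The authors' deposited table gave 1.19 (SE 0.19) for Rhbdf2 and 0.55 (SE 0.12) for Rhbdf1, with adjusted Wald p-values of 8.97e-09 and 5.79e-05. Timp3, an inhibitor of ADAM proteases, rose as well, at 0.95 (SE 0.17, adjusted Wald p = 2.33e-07) in the authors' deposited table. Adam9, a protease that can release Hbegf, fell slightly, at -0.30 (SE 0.08, adjusted Wald p = 0.00116) in the authors' deposited table, a call lost under total-count scaling, where its log2 fold change was -0.02. The others called were Bace2, higher, and Bace1 and Cnih4, lower. Under total-count scaling Bace1 turned to 0.08 and Cnih4 stood at -0.26, and neither was called.

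The 31 adaptors and relay genes between receptor and ERK or AKT had 6 called higher and 2 lower, and 23 were not called. Their median was -0.01. Over all genes with an adjusted p-value, 16.6% were called higher and 17.4% lower. Total-count scaling gave 18 higher and 0 lower on this list, beside 40.4% and 6.6% of all genes. Src, a kinase that acts with Egfr, had implied means of 16 and 69.7 normalized counts and a log2 fold change of 2.12 (SE 0.35, adjusted Wald p = 3.09e-08) in the authors' deposited table. Hsp90aa1, a stress-inducible chaperone on which Erbb2 depends, was at 1.12 (SE 0.11, adjusted Wald p = 1.84e-21) in the authors' deposited table. Its constitutive counterpart Hsp90ab1, the most abundant gene of the list, was at 0.12 (SE 0.08, adjusted Wald p = 0.218) in the authors' deposited table and was not called, but it was called higher, at 0.41, under total-count scaling. Mapk3 (ERK1) rose, at 0.76 (SE 0.14), and Pik3r2 rose, at 0.29 (SE 0.08), in the authors' deposited table. Nras and Shc1 were the others called higher, and Cdc37 and Pik3cb were those called lower. Under total-count scaling neither was called, with Cdc37 turned to 0.03 and Pik3cb at -0.03.

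Receptor inhibitors and turnover genes, 20 in all, had 4 higher and 4 lower, with a median of 0.07. Of all genes with an adjusted p-value, 16.6% were called higher and 17.4% lower. Total-count scaling gave 12 higher and 1 lower on this list, beside 40.4% and 6.6% of all genes. Errfi1 (MIG6), which binds and blocks the kinase of ERBB receptors, rose from 115 to 202 in implied means, at 0.80 (SE 0.16, adjusted Wald p = 5.75e-06) in the authors' deposited table. Sh3kbp1 (CIN85), an adaptor of Cbl in receptor endocytosis, fell furthest of the pathway genes, from 2790 to 691, at -2.01 (SE 0.22, adjusted Wald p = 3.32e-18) in the authors' deposited table. Ptpn1, a phosphatase of activated receptors, and Hgs, which sorts them to lysosomes, were higher, at 0.44 (SE 0.08) and 0.38 (SE 0.09) in the authors' deposited table. Ptpn12 was the other gene called higher, and Epn1, Socs5 and Stub1 were called lower beside Sh3kbp1. Under total-count scaling Sh3kbp1 alone of these was called lower, with Epn1 at -0.02, Socs5 at -0.04 and Stub1 turned to 0.04.

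The feedback genes that ERK signalling is known to induce included 16 genes, of which 15 had an adjusted p-value, with 6 higher and 0 lower, where 16.6% of all genes were higher and 17.4% lower. Total-count scaling gave 9 higher and 0 lower, where 40.4% of all genes were higher and 6.6% lower. Their median log2 fold change was 0.78, beside 0.02 over all genes. Spry4, an inhibitor of the pathway from receptor to ERK, rose from 155 to 599 in implied means, at 1.95 (SE 0.19, adjusted Wald p = 2.02e-22) in the authors' deposited table. Etv5, a transcription factor downstream of ERK, was at 1.54 (SE 0.21, adjusted Wald p = 1.98e-11) in the authors' deposited table. The ERK phosphatases Dusp6 and Dusp4 rose, at 0.93 (SE 0.21) and 4.66 (SE 1.04) in the authors' deposited table, the latter from an implied mean of only 3.51 normalized counts. Egr1 had the largest base mean of the list and a log2 fold change of 1.10 (SE 0.47, adjusted Wald p = 0.0577) in the authors' deposited table, which missed the threshold. It was called under total-count scaling (1.39), under median-centring (1.13), with a minimum base mean of 100 and at a threshold of 0.1. Myc and Spred2 were the others called higher, and Fosl1 was listed at 0. These genes respond to many receptors besides the ERBB family, and whether they follow any receptor here was not tested.

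**Figure D4:**
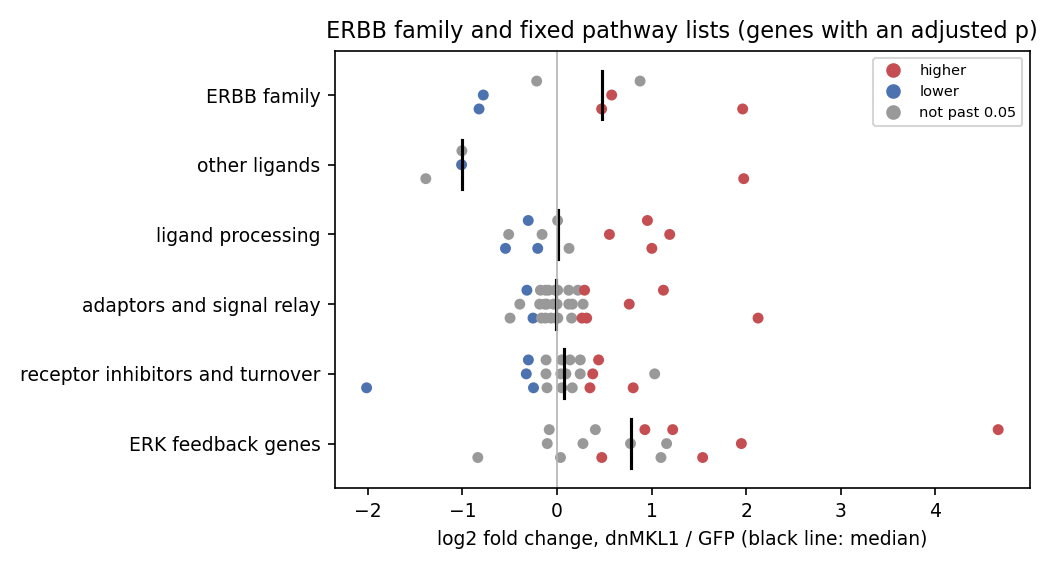
Log2 fold changes of the 7 ERBB genes and of the pathway genes with an adjusted p-value, 1 point per gene, with the median of each list as a black line and calls in red (higher) and blue (lower). The feedback genes have 6 of 15 points in red and none in blue, at a median of 0.78, and the other lists hold points of both colours.

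Over the 5 pathway lists together, 21 of 81 genes with an adjusted p-value were higher and 10 lower, beside 16.6% and 17.4% of all genes. Total-count scaling gave 45 higher and 2 lower, beside 40.4% and 6.6% of all genes. The libraries carried the defining markers of cardiomyocytes, led by Myh6 at a base mean of 594986 normalized counts, and 6 of 9 cardiomyocyte markers were lower in dnMKL1 libraries and 0 higher (4 lower under total-count scaling). Mural markers summed to 18254 normalized counts in GFP and 15947 in dnMKL1 libraries, with 3 of 9 higher (Cspg4, Myh11 and Tagln) and 1 lower (Acta2). Most of the sum was Acta2, at implied means of 10454 and 4999, and Abcc9, at 6332 and 7773. Abcc9 was called higher, at 0.58, under total-count scaling. Whether the Acta2 and Abcc9 reads came from mural cells was not tested. Epicardial markers (1 of 9 called, Krt8, higher) summed to 122 and 170, macrophage markers (1 of 10 called, Cd68, higher) to 187 and 166, and lymphoid and mast cell markers, with Kit the most abundant and 0 called, to 59.3 and 60.3. The part of other cells in the results for the ERBB genes was not tested beyond the values given above.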

How the data were processed

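The members and lists were chosen with earlier results of these data known. Polyadenylated RNA of sorted cardiomyocytes was sequenced in 5 GFP and 5 dnMKL1 libraries. Per the labels' protocols, 10 ng of total RNA was reverse transcribed, amplified over 8 PCR cycles, and 500 pg of cDNA entered library preparation. Per the submitters' processing notes, the tools were CASAVA 1.8, STAR 2.5.3a and featureCounts (Subread 1.5.2) with build mm10; annotation and strand setting are not given in the sources used here. Per the file headers, the 1 deposited table has the layout that DESeq2 writes. The base mean is a deposited signal in normalized counts; the fold change and SE are deposited on the log2 scale; the Wald statistic is a deposited score; the p-value and adjusted p-value are the authors' own. They adjusted 14056 genes, of base mean 1.31 or more, and recomputing this left a largest gap of 6.91e-07.

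The call used was the deposited adjusted p-value under 0.05. Implied group means were computed from base mean and fold change, taking the groups as equal in number. Shifted fold changes were tested with the deposited SE. Genes seen once, in 1 library, have a base mean of 1 over 10 size factors, which gave the size factors; whether they were listed as higher or lower placed the library in its group. Base means were then resolved into whole reads. The plan was to do so only where 1 solution fitted the base mean, and Nrg1 departed from that plan. Of 2421 genes with a base mean under 0.6, 99.8% had exactly 1 solution. For Nrg1, whose base mean is deposited to 7 digits, 184990 solutions fitted the base mean, and 1 of them also gave the deposited fold change, within 4.27e-07, with the dispersion that gives the deposited SE; the next best missed by 3.12e-05. For Egfr, whose base mean is deposited to 15 digits, 1 solution fitted the base mean alone, and its refitted fold change was within 4.05e-07. The method was tested on simulated data. Reads carry no molecular identifiers, so counting intervals and floors (3 reads) cover counting error only.

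Pathway and marker lists held 83 and 89 genes in 5 and 9 lists; 2 symbols were matched through RefSeq synonyms (Hras as Hras1, Adgre1 as Emr1) and 1 (Muc16) was not matched. Besides the 10 members, the text names all other ligands, the 4 genes with the smallest p-value and the 1 with the largest base mean of each other pathway list, and genes among the 2 most abundant of each marker list; any other gene named beside a count or as a defining marker was added after its values were seen. Some marker genes are not reported here by name. Python 3.11.15, numpy 2.4.6, pandas 2.3.3 and scipy 1.17.1 were used.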

Additional observations from a re-analysis of the deposited data

Results flagged for a closer look

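In 4 groups of 5 libraries, 1 library stood apart from the other four by the gap between neighbours relative to the whole range, a check that flags about 1 in 20 groups by chance and that 1 or a few reads are enough to trigger. They were the single GFP library with Areg reads, at 0.821 normalized counts (1 read), the single dnMKL1 library with an Ereg read, at 1.24 (1 read), the single GFP library with Nrg2 reads, at 1.64 (2 reads), and the dnMKL1 library with 4 Nrg2 reads, at 4.94. The Ereg read and the 4 Nrg2 reads fell in the same dnMKL1 library. No library of either group stood apart for Egfr or Nrg1.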

How the results depend on the processing

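Of the members, 5 were called. A threshold of 0.01 left 4 and one of 0.1 left 5, a minimum base mean of 10 left 4 and one of 100 left 3 (Erbb2, Hbegf and Erbb3, since fewer genes are tested), and 4 stayed at an absolute log2 fold change of at least 0.5. Adjustment over all genes with a p-value and median-centring left 5. Total-count scaling left 4, with or without Mkl1 in the totals, and turned Erbb4 to 0.073 and, without Mkl1, to 0.082, in both cases not called. The 31 called pathway genes became 47 under total-count scaling (48 without Mkl1) and 17 at an absolute log2 fold change of at least 0.5, and stayed between 26 and 40 otherwise. The number called over all 14056 genes moved too, from 4792 to 6612 under total-count scaling (6699 without Mkl1). It was 2735 at an absolute log2 fold change of at least 0.5, and 3549 and 5580 at thresholds of 0.01 and 0.1. Of the marker genes named, total-count scaling turned Fabp4 to 0.18 (0.19 without Mkl1) and Csf1r to 0.28 (0.29), and median-centring turned Csf1r to 0.023, none of them called. The scalings add 0.29, 0.30 and 0.03 to every log2 fold change. No paired analysis was possible because the deposited comparison has no values per replicate number. Fits without 1 library were for the same reason not run, apart from the ratios of Egfr (0.64 to 1.31) and Nrg1 (1.78 to 2.52) from whole reads, which were added after seeing the data. Whether 1 library decides the values of Erbb2, Erbb3, Erbb4, Hbegf or Btc is not known.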
